A study of Mus musculus with 3 samples.

Results

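The genes described are 10 genes of the YAP, TAZ and TEAD pathway: Yap1, Wwtr1 (which encodes TAZ), Tead1, Tead2, Tead3, Tead4, Lats1, Lats2, Amotl2 and Ajuba. They were chosen by name, were found by Ensembl identifier mapped to mouse symbols, and are 10 of the 49120 gene symbols listed in the files. Their levels were compared across 3 cell populations of back-skin epidermis from wild-type C57BL/6 mice, which were 7 weeks of age with follicles in second telogen, a resting phase of the hair cycle. The populations were sorted by flow cytometry after thermolysin separation of the epidermis: S, stem cells of the suprabasal bulge, carried CD34 with low Itga6; B, stem cells of the basal bulge, carried CD34 with high Itga6; and N, the non-stem cells, lacked CD34. A single RNA sequencing library was made for each population from the pooled RNA of 4 mice. With n of 1 in every group the differences have no replicate check, and no p-value is given. N is defined by lack of CD34, so it is not a single cell type.

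YAP and TAZ are transcriptional coactivators that do not bind DNA themselves and act mainly through the TEAD factors. The Hippo kinases LATS1 and LATS2 phosphorylate YAP and TAZ, which holds them in the cytoplasm, so their activity is set largely by where the proteins are and not by their transcript levels. In the epidermis YAP is known for its role in the growth of basal progenitors. Angiomotins such as AMOTL2 bind YAP, AJUBA restrains LATS, and Amotl2, Ajuba and Lats2 are themselves known as YAP and TAZ target genes, so some members are both regulators and readouts.

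TEAD factors bind DNA at the sequence GGAATG, read as CATTCC on the other strand. The 250 bases before each annotated start were searched for it on both strands in the RefSeq promoter windows (GRCm38.p6). Windows were matched for 8 of the 10 genes, and 5 of these 8 held the motif: Yap1, Wwtr1, Tead3, Ajuba and Amotl2. Over all 27025 genes with a window, 14.4% held it in at least 1 window. The windows of Tead2, Lats1 and Lats2 had no match, and no window of the 8 genes held the AP-1 motif TGANTCA, which 7.82% of all genes held. A stretch that holds the motif is shown for each of the 5 members and for Ptpn14 and Ccn1, which are target genes whose levels are compared below. The capitals mark the TEAD motif, and each stretch has 40 bases on either side, except that of Amotl2, which lies in an annotated exon and is given as 30 bases.
Yap1 (chr9:8004692-8004777, minus strand): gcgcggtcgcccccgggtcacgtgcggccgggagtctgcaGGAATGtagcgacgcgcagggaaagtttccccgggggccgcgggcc
Wwtr1 (chr3:57576001-57576086, minus strand): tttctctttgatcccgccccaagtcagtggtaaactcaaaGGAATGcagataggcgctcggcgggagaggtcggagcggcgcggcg
Tead3 (chr17:28350942-28351027, minus strand): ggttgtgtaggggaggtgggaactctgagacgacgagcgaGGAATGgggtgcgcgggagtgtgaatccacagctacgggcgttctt
Ajuba (chr14:54577780-54577887, minus strand): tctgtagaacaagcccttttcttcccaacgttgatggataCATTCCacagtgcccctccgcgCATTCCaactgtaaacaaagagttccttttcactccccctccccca
Amotl2 (chr9:102717727-102717756, plus strand): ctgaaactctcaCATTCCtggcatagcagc
Ptpn14 (chr1:189728082-189728167, plus strand): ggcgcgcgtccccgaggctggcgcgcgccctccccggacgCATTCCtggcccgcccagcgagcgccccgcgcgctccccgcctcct
Ccn1 (chr3:145650043-145650128, minus strand): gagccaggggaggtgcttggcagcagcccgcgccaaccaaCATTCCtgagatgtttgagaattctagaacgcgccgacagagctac

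The motif began 141 bases before the start in Yap1, 136 in Wwtr1, 182 in the first of the Tead3 windows, 65 in Amotl2, 146 in Ptpn14 and 103 in Ccn1. Ajuba held it at 186 and at 164 bases before the start. The second Tead3 window held it at 123 and at 114 bases before its start, in a stretch that overlaps annotated exons and is not shown. A match describes these letters and shows neither binding nor regulation in these cells.

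Levels are FPKM, that is fragments per kilobase of transcript for each M (mega) of mapped fragments, divided by a scaling factor per library, and are called scaled FPKM. FPKM is a level per length, so it may be compared between genes. The step between the lowest values gave 31.4 M fragments for S, 32.7 M for B and 35.4 M for N. The genes of the sort followed the gates for CD34, with Cd34 at 215 in S, 144 in B and 0.201 in N, whereas Itga6 was at 33.1 in S, 49.3 in B and 115 in N. Of 5 basal keratinocyte genes all were measured, with summed levels of 1262 in S, 1414 in B and 1668 in N, and Krt5 at 959, 810.3 and 818. Of 8 bulge genes all were measured, with sums of 4665 in S, 2756 in B and 1048 in N. Krt15 made up most of each sum (3641 in S, 1855 in B and 1014 in N), and the list includes Cd34, a gene of the sort. All were lowest in N, and Tcf7l1 alone was highest in B (0.977, 1.88 and 0.204). Defining genes of most other cell types were near 0: the summed level was at most 2.6 for 7 fibroblast genes (most abundant Col1a2, at most 1.77), 0.537 for 6 endothelial genes (Pecam1, at most 0.257), 0.148 for 4 Merkel cell genes (Krt8, at most 0.122) and 1.08 for 5 mast cell genes (Hdc, at most 1.05). In the Langerhans and myeloid list 2 of 6 genes were measured, with sums of 10.2 in S, 8.33 in B and 20.7 in N and H2-Aa the most abundant (4.51, 4.81 and 13.5). Cd74, Ptprc and Csf1r were also highest in N. Against the order of H2-Aa, Cd207 was lowest in N (0.126, beside 0.343 in S) and Lyz2 was highest in S (0.756, beside 0.178 in N). In the Schwann cell list 1 of 5 was measured, Erbb3, at 5.80 in S, 4.6 in B and 11.2 in N.

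Of the 10 members, 9 reached a mean of 1 scaled FPKM and are called measured, and Tead2 did not (mean 0.648). Ratios were taken as log2 of scaled FPKM plus 1, a scale that understates the ratio of low genes, and a gene was called higher or lower when its log2 ratio reached 1 in size (2-fold). In S against N, 1 of the 9 was higher (Tead4) and 2 were lower (Tead1 and Amotl2), while 9.56% of all 11575 measured genes were higher and 10.9% lower. In B against N, 1 of the 9 was higher (Tead4) and 0 were lower, beside 7.27% and 7.10% of all genes. In S against B, 0 of the 9 were higher and 0 lower, beside 3.89% and 5.93%. Without the added 1, Amotl2 (3.45-fold) and Tead1 (2.38-fold) were more than 2-fold lower in S than in B. With it their log2 ratios were -0.84 and -0.86, so neither was called there. At 1.5-fold, 2 members were higher and 4 lower in S against N (18.9% and 19.2% of all genes), 1 higher and 1 lower in B against N (14.4% and 16.7%), and 0 higher and 2 lower in S against B (9.98% and 11.4%). Each member is 1 in 9, so these counts cannot be set apart from the background shares. The median log2 ratio of the 9 was -0.54 in S against N, -0.23 in B against N and -0.15 in S against B, where all measured genes had 0.02, -0.04 and 0.06. The comparisons S against N and B against N share the N library, so their values are not independent. In bulk libraries such as these, fewer cells of a type and less RNA per cell cannot be told apart.

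**Figure D1:**
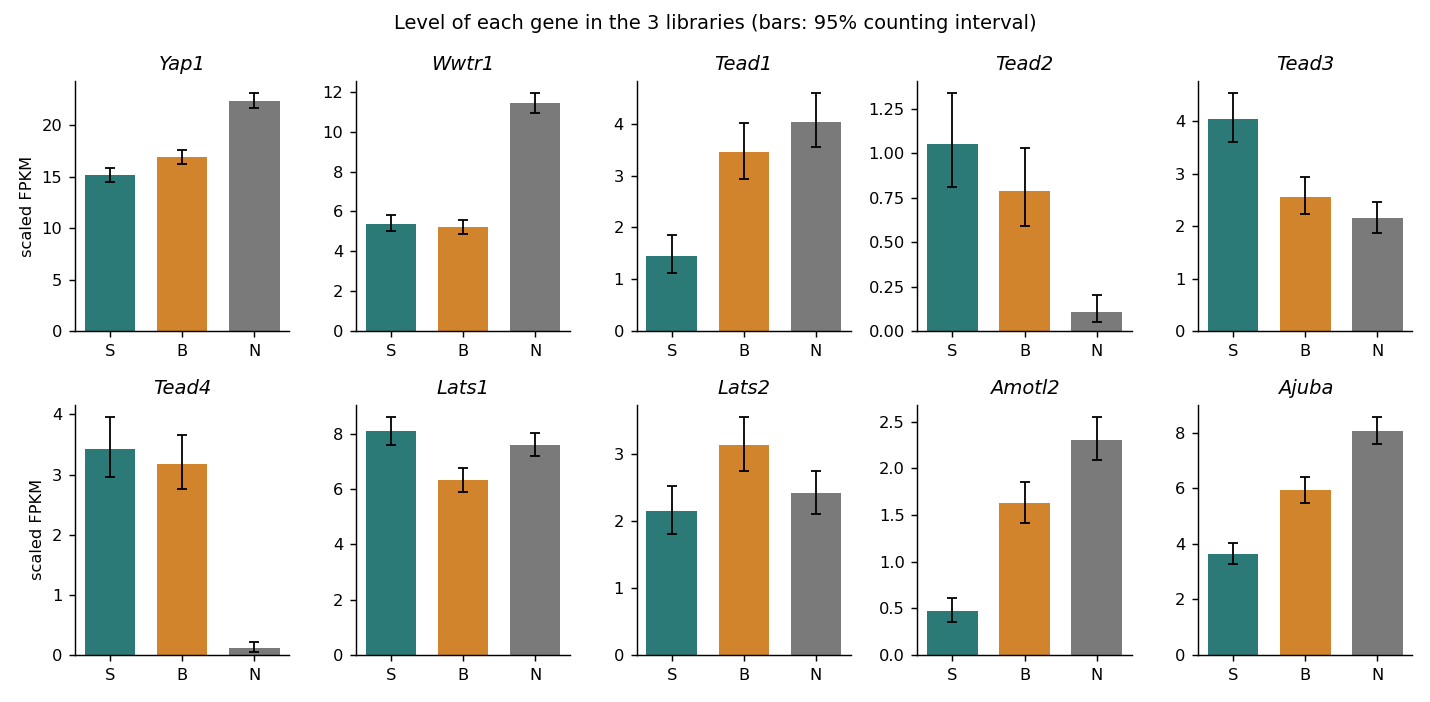
Scaled FPKM of the 10 genes in S, B and N, with 1 bar per library and a 95% exact Poisson counting interval, which covers counting error only. Tead4 and Tead2 are near 0 in N alone, Yap1 and Wwtr1 are highest in N, and Tead1, Amotl2 and Ajuba are lowest in S.

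Yap1 was the most abundant member in every library. It lies on chromosome 9 (7931999 to 8004596, mm10, minus strand, ENSMUSG00000053110) and had 15.1 scaled FPKM in S, 16.9 in B and 22.4 in N. The level was lowest in S and highest in N, and each neighbouring pair differed beyond counting error. It was 1.48-fold lower in S than in N (95% exact binomial interval of the counts 1.40 to 1.57) and 1.32-fold lower in B than in N (1.25 to 1.40). Such intervals, here and in what follows, reflect counting error alone, and neither amplification nor the variation between mice enters them. In rank, Yap1 stood at the 80.5th percentile of measured genes in S, the 84.1th in B and the 86.7th in N. Exons of the antisense gene Gm20416 overlap those of Yap1, and without strand information their fragments cannot be told apart. Gm20416 was at 0.636 in S, 0.475 in B and 1.53 in N, which is small beside Yap1.

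Wwtr1, which encodes the second coactivator TAZ, showed a wider gap between the bulge libraries and N. The gene is on chromosome 3 (57455649 to 57575910, minus strand, ENSMUSG00000027803), and its level was 5.39 in S, 5.22 in B and 11.4 in N. The S and B libraries did not differ beyond counting error (ratio S over B 1.03, interval 0.933 to 1.15), and both were below N. Its level was 2.12-fold lower in S than in N (1.95 to 2.31) and 2.19-fold lower in B than in N (2.02 to 2.38). On the log2 scale with the added 1 these ratios were -0.96 for S against N and -1.0 for B against N, which was just short of -1 before rounding, so neither was called. Without scaling they were -1.19 for S against N and -1.15 for B against N, past the limit. The members just short of the lower limit were thus Wwtr1 in both comparisons and Ajuba in S against N (-0.97). Wwtr1 made up 26.3% of the summed Yap1 and Wwtr1 level in S, 23.5% in B and 33.8% in N. Counting SDs of these shares were at most 0.853 percentage points, so the share was lower in both bulge libraries than in N beyond counting error.

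The TEAD genes encode the DNA-binding partners, and they differed most in which paralogue was present. Their summed level was 9.97 in S, 9.97 in B and 6.42 in N. Tead1, Tead2, Tead3 and Tead4 held 14.5%, 10.5%, 40.6% and 34.4% of that sum in S. In B the shares were 34.6%, 7.88%, 25.7% and 31.9%. In N they were 63.0%, 1.71%, 33.6% and 1.67%, so Tead1 and Tead3 accounted for nearly all of the TEAD transcript there. The counting SD of any of these shares was at most 2.16 percentage points. Shares within a library do not depend on the scaling factor.

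**Figure D2:**
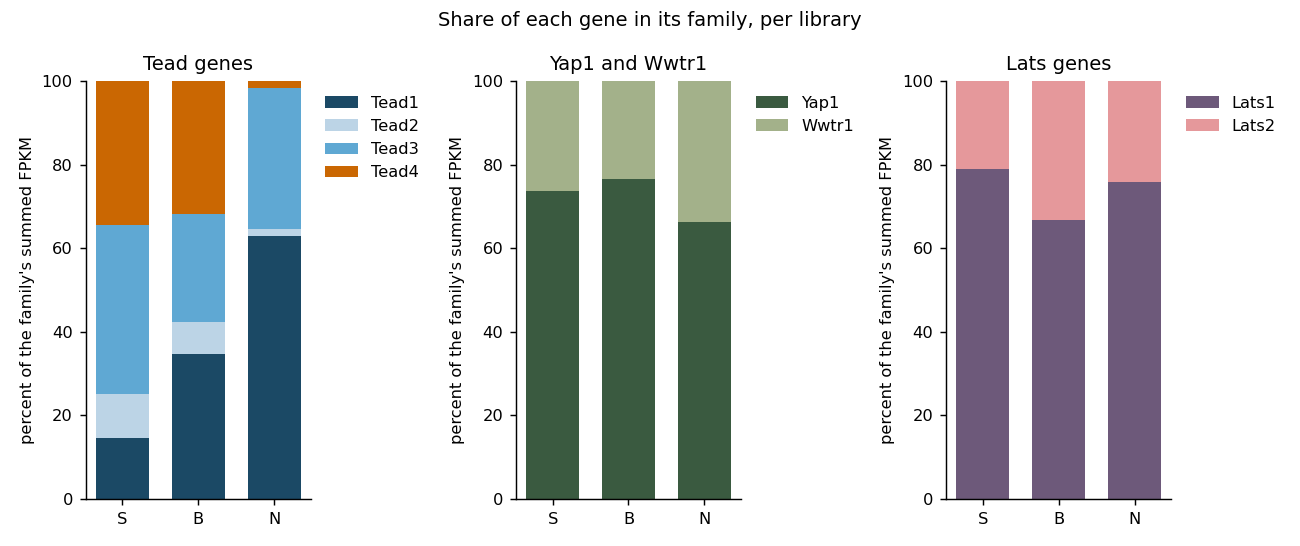
Percent of the summed scaled FPKM of each family held by each gene, in S, B and N. Tead4 holds 34.4% of the TEAD sum in S and 31.9% in B but 1.67% in N, Tead1 holds 14.5%, 34.6% and 63.0%, and the shares within the Yap1 and Wwtr1 pair and the Lats pair differ less.

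Tead4 was the member with the largest difference between libraries. It is on chromosome 6 (128224288 to 128300823, minus strand, ENSMUSG00000030353) and had 3.43 scaled FPKM in S, 3.18 in B and 0.107 in N. S and B did not differ beyond counting error, and both were far above N. Tead4 was 32.1-fold higher in S than in N (interval 15.9 to 75.3) and 29.7-fold higher in B than in N (14.8 to 69.7). The N value rests on an estimated 7.98 fragments. With the added 1 the log2 ratios were 2.00 for S against N and 1.92 for B against N, and Tead4 alone among the members lay outside the 5th to 95th percentiles of all measured genes in either of these comparisons. Tead2, on chromosome 7 (45215753 to 45233644, plus strand, ENSMUSG00000030796), was low throughout, at 1.05 in S, 0.786 in B and 0.110 in N. Its level exceeded that of N by 9.57-fold in S (4.83 to 22.2) and by 7.17-fold in B (3.57 to 16.8), from an estimated 9.16 fragments in N. Tead2 exons overlap those of the leukocyte gene Cd37 on the other strand, which was at 0.0732 in S, 0.0503 in B and 0 in N.

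Tead1 and Tead3 ran in opposite directions across the populations. Tead1, also on chromosome 7 (112679318 to 112906807, plus strand, ENSMUSG00000055320), had 1.45 in S, 3.45 in B and 4.04 in N. Its level in S stood apart from both others, while B and N did not differ beyond counting error. The Tead1 counts were estimated with a median length of 1495 bp over 9 coding transcripts, and a longer length would narrow the intervals. Tead1 was 2.79-fold lower in S than in N (2.1 to 3.73) and 2.38-fold lower in S than in B (1.76 to 3.21). The log2 ratio of S against N was -1.04, past the limit for a call, and -0.97, short of it, when protein-coding sums were made equal. Tead3 is on chromosome 17 (28331671 to 28350805, minus strand, ENSMUSG00000002249) and had 4.05 in S, 2.56 in B and 2.16 in N. It was 1.87-fold higher in S than in N (1.57 to 2.25) and 1.58-fold higher in S than in B (1.32 to 1.90), with B and N not apart beyond counting error, although an equal total over all rows turned its log2 ratios to -0.68 in S against N and -1.02 in S against B. The ratio of Tead1 to Tead3 was 0.358 in S, 1.35 in B and 1.87 in N. With less TEAD and more coactivator transcript in N, the summed Yap1 and Wwtr1 level was 2.06 times the summed TEAD level in S, 2.22 times in B and 5.27 times in N.

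**Figure D3:**
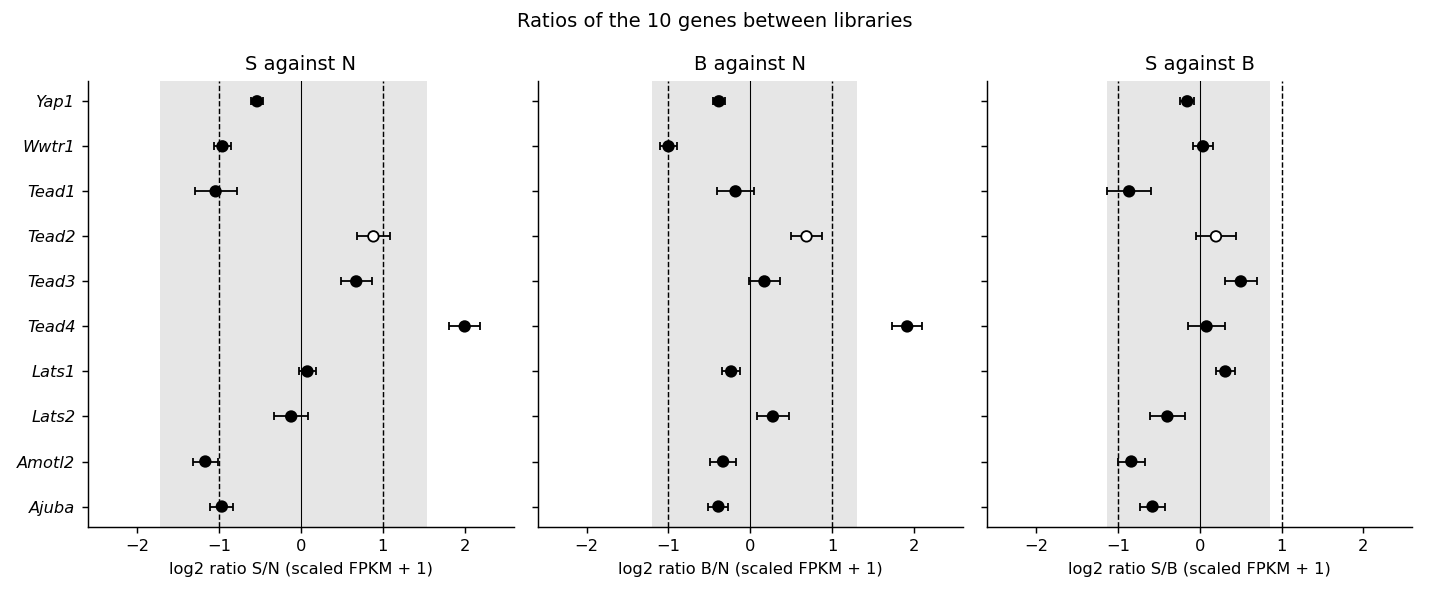
Log2 ratio of scaled FPKM plus 1 for the 10 genes in S against N, B against N and S against B, with 95% counting error bars. Dashed lines mark 2-fold, the grey band spans the 5th to 95th percentiles of all measured genes, and the open circle is Tead2, which did not reach the mean of 1. Tead4 lies outside the band in S against N and B against N, and every other point lies inside it.

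The LATS kinases, which phosphorylate YAP and TAZ, were not called in any comparison. Lats1, on chromosome 10 (7681209 to 7716458, plus strand, ENSMUSG00000040021), had 8.09 in S, 6.32 in B and 7.61 in N. S and N did not differ beyond counting error, and B was lowest, 1.20-fold below N (1.1 to 1.32). Lats2 is on chromosome 14 (57642077 to 57758388, minus strand, ENSMUSG00000021959), and its level was 2.15 in S, 3.14 in B and 2.42 in N. B was highest, 1.30-fold above N (1.08 to 1.56), and S and N did not differ beyond counting error. Between the bulge libraries Lats1 was 1.28-fold higher in S than in B (1.17 to 1.41) and Lats2 was 1.46-fold lower in S than in B (1.19 to 1.81). An equal total over all rows turned the log2 ratios of Lats1 to -1.54 in S against N and -1.46 in S against B. In shares, which no scaling alters, Lats2 made up 21% of the summed Lats level in S, 33.2% in B and 24.1% in N. Exons of the same-strand gene Gm49361 overlap those of Lats2 in GENCODE M21, and the gene model in the files is longer than the one there, so its fragments may be included.

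Amotl2 and Ajuba encode cytoplasmic partners of the pathway, and both were lowest in S, intermediate in B and highest in N. Amotl2, on chromosome 9 (102716672 to 102733418, plus strand, ENSMUSG00000032531), had 0.472 in S, 1.63 in B and 2.31 in N. Each step in that order was beyond counting error. It was 4.89-fold lower in S than in N (3.74 to 6.62), 3.45-fold lower in S than in B (2.59 to 4.71) and 1.42-fold lower in B than in N (1.20 to 1.69). The S value rests on an estimated 58.4 fragments. Ajuba, on chromosome 14 (54567469 to 54577661, minus strand, ENSMUSG00000022178), had 3.64 in S, 5.93 in B and 8.08 in N. It was 2.22-fold lower in S than in N (1.97 to 2.51), 1.63-fold lower in S than in B (1.43 to 1.86) and 1.36-fold lower in B than in N (1.23 to 1.5). Both genes held the TEAD motif in the stretches above, as did Yap1, Wwtr1 and Tead3. Tead1 and Tead4 had no matched window, and levels were not compared between members with and without the motif.

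Summed levels of markers of other keratinocytes had the same order as Yap1, Tead1, Amotl2 and Ajuba, but not every gene of the lists did. The summed level of 5 differentiation genes was 410 in S, 1511 in B and 3502 in N, and that of 5 upper follicle genes was 98.8, 159 and 628. All genes of both lists were measured, and the most abundant were Krtdap (337 in S, 1134 in B and 2868 in N) and Defb6 (9.37, 60.3 and 326). Exceptions to the order were Lor (1.81 in S, 1.72 in B and 0.954 in N), Ivl (1.95, 1.84 and 3.51) and the upper follicle gene Plet1 (76.6, 42.9 and 78.9). Of the basal keratinocyte genes, Krt14 (12.7 in S, 277 in B and 588 in N) and Trp63 (107, 126 and 138) had that order, while Krt5 was highest in S, and Itgb4 (22.1, 23.7 and 15.0) and Col17a1 (161, 177 and 109) were lowest in N. Of the T cell genes 1 of 6 was measured, Thy1, at 0.673 in S, 4.99 in B and 18.3 in N, and the list summed to 1.58, 5.88 and 19.9 with Cd3d at 0 in S and Cd2 at 0 in B. Against the order of the sum, Cd3e was lowest in B (0.487 in S, 0.292 in B and 1.18 in N), Cd3g was lowest in N (0.311, 0.482 and 0.106) and Cd2 was highest in S. Of the dermal papilla genes 1 of 5 was measured, Rspo3, at 0.0459 in S, 1.04 in B and 5.52 in N, with list sums of 0.384, 1.97 and 5.56 and Sox2 at 0 in S and N. Crabp1 (0.210 in S, 0.802 in B and 0.0383 in N) and Corin (0.00740, 0.118 and 0) were lowest in N, and Alpl was above 0 in S alone (0.121). Lower sums in N, as for Tead4 and Tead2, were seen in the bulge, fibroblast (0.580 in N), endothelial (0.240) and mast cell (0.00831) lists given above. They were also seen in the inner bulge list (5 of 5 measured, 408 in S, 89.3 in B and 8.35 in N), in which Timp3 ran the other way (2.24, 2.86 and 7.53), the melanocyte list (35.4, 17.6 and 2.40) and the pericyte list (6.05, 5.84 and 1.43). In the last pair 1 gene each was measured, Mitf (34.4 in S, 16.4 in B and 2.08 in N) and Cspg4 (5.47, 5.38 and 0.648). The melanocyte genes Dct, Tyrp1 and Mlana were at 0 in N and Mlana also in S, but Tyr was highest in N (0.118 in S, 0.127 in B and 0.250 in N). Also highest in N were the pericyte genes Acta2 (0.103, 0.185 and 0.499) and Rgs5 (0.00843, 0 and 0.0435) and the fibroblast gene Dcn (0.386, 0.123 and 0.440). The part of these markers in the pathway genes' differences was not tested. Immediate early genes, a list of 12 chosen after the values were seen, had summed levels of 943 in S, 792 in B and 1205 in N, and 3 of the 12 (Fosb, Ier2 and Nr4a1) were called lower in S than in N, beside 10.9% of all genes. In B against N 1 was lower (Atf3, beside 7.10% of all genes) and in S against B 1 was lower (Nr4a1, beside 5.93%). The list's median log2 ratio was -0.69 in S against N, -0.70 in B against N and 0.19 in S against B.

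Counts called in the upstream kinase core and in the phosphatase complex that opposes it cannot be set apart from the background shares at these list sizes. Of 15 measured core kinase genes and adaptors outside the members, of 17 listed, 1 was higher in S than in N (9.56% of all genes) and 1 was below N in B (7.10%). Mink1, a MAP4K-family kinase gene, was at 10.9 in S, 7.96 in B and 4.72 in N, and Stk38, a kinase gene related to LATS, at 12.1, 9.88 and 21.5. Other named core genes stayed within 2-fold. These were Map4k4 (21.8 in S, 13.2 in B and 14.4 in N), Map4k3 (8.86, 7.42 and 10.3) and Mob1a, which encodes the LATS coactivator MOB1A (44.95, 33.6 and 36.7). The median log2 ratio of the core genes was 0.23 in S against N, 0.06 in B against N and 0.23 in S against B. Of 16 genes of the STRIPAK phosphatase complex, which dephosphorylates the MST kinases, all were measured. In S against N 0 were called, while 9.56% of all genes were higher and 10.9% lower. In S against B 0 were called, beside 3.89% and 5.93%. Only Strip2, picked after its values were seen, was called in B against N (higher, beside 7.27% of all genes), at 0.980 in S, 2.34 in B and 0.308 in N. Its mean of 1.21 passed the filter only through the B value, so this call is partly set by the filter. The STRIPAK genes with the largest ratios and a mean of at least 3 were Mob4 (26.1 in S, 16.8 in B and 28.3 in N), Sike1 (14.0, 9.33 and 8.49), Fgfr1op2 (22.1, 19.3 and 30.3), Stk26 (3.63, 4.92 and 2.86) and Strn4 (4.09, 3.95 and 5.69).

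Among upstream regulators, 3 of 19 measured genes (23 listed) were higher in S than in N, with 1 lower, beside 9.56% and 10.9% of all genes. In B against N, 0 were higher and 2 lower, beside 7.27% and 7.10%. Fat2, an atypical cadherin gene of the epidermis, was at 17.0 in S, 10.4 in B and 6.19 in N. The polarity genes Patj (6.23 in S, 4.83 in B and 2.01 in N) and Crb3 (4.71, 2.71 and 1.81) were also higher in S than in N. The scaffold gene Frmd6 was 2.36-fold lower in B than in N, at 9.19 in S, 5.80 in B and 13.7 in N. Rassf1, picked after its values were seen, was lower in both bulge libraries, at 0.799 in S, 1.31 in B and 4.34 in N. Llgl2, another polarity gene, was at 5.41 in S, 3.25 in B and 2.69 in N and was not called. In S against B, 0 of the 19 were called, beside 3.89% higher and 5.93% lower among all genes. The median log2 ratio of the list was -0.16 in S against N, 0.11 in B against N and 0.15 in S against B.

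**Figure D4:**
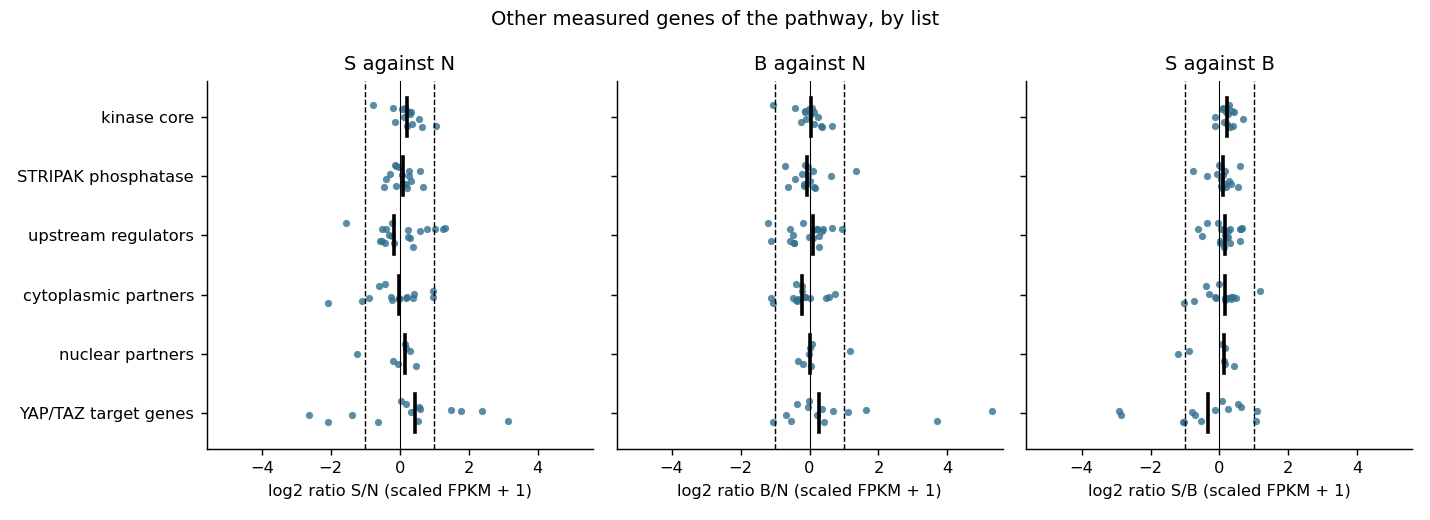
Log2 ratio of scaled FPKM plus 1 of each measured gene of the 6 pathway lists, members left out, in S against N, B against N and S against B. Each point is a gene, black bars are medians and dashed lines mark 2-fold. Most genes of the kinase core and STRIPAK lists lie within 2-fold, as do most of all measured genes, and the target genes spread widest.

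Among 15 measured cytoplasmic partners outside the members, of 16 listed, 2 were lower in S than in N (10.9% of all genes) and 2 lower in B than in N (7.10%). Ptpn14, a phosphatase gene whose product binds YAP and which is also a target gene, was at 3.92 in S, 8.95 in B and 19.9 in N. It was 5.08-fold lower in S than in N (4.71 to 5.49), 2.22-fold lower in B than in N (2.11 to 2.35) and 2.28-fold lower in S than in B (2.1 to 2.49), the order seen in Amotl2 and Ajuba. Exons of the antisense gene Gm26574 overlap those of Ptpn14. Amotl1, the paralogue of Amotl2, had the same order at 9.20 in S, 15.9 in B and 20.7 in N. Limd1, a paralogue of Ajuba, was at 7.22, 9.68 and 11.5 and was not called. Sfn, the 14-3-3 sigma gene of keratinocytes, was at 53.8 in S, 45.9 in B and 100.2 in N. Csnk1e, a kinase gene, was the 1 gene called higher in S than in B (3.89% of all genes), at 7.62 in S, 2.80 in B and 3.44 in N. Ptpn14 was the 1 gene called lower there (5.93% of all genes). The median log2 ratio of these partners was -0.02 in S against N, -0.23 in B against N and 0.17 in S against B. Of 14 nuclear partners outside the members, 7 were measured. Runx1, which encodes a transcription factor of follicle stem cells, was at 4.91 in S, 9.96 in B and 3.81 in N. It was the 1 of the 7 higher in B than in N, beside 7.27% of all genes. Trp73, a p53-family gene picked after its values were seen, was at 0.111 in S, 1.56 in B and 1.60 in N. It was the 1 of the 7 called lower in S against N (10.9% of all genes) and in S against B (5.93%). Vgll4, whose product competes with YAP for TEAD, was at 13.7 in S, 9.91 in B and 9.62 in N. Smad2 (17.8 in S, 16.2 in B and 20.7 in N) and Arid1a (10.9, 9.67 and 11.2) were not called. The median log2 ratio of the nuclear partners was 0.14 in S against N, 0.02 in B against N and 0.13 in S against B.

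The target genes differed between libraries in both directions. The list was a signature of 22 YAP and TAZ target genes known from human cancers, 2 of which are members, and 14 of the other 20 were measured. In S against N, 4 of the 14 were higher and 3 lower (median log2 ratio 0.44), beside 9.56% and 10.9% of all genes. In B against N, 4 were higher and 1 lower (median 0.28), beside 7.27% and 7.10%. In S against B, 2 were higher and 4 lower (median -0.33), beside 3.89% and 5.93%.

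Ccn1 and Ccn2, the classical target genes, encode secreted matrix proteins of one family and differed from each other. Ccn1 was at 7.67 in S, 61.3 in B and 53.1 in N. It was 8.0-fold lower in S than in B (7.25 to 8.83), and B was 1.15-fold higher than N. Ccn2 was at 18.6 in S, 147 in B and 2.73 in N. It was 7.86-fold lower in S than in B (7.43 to 8.33) but higher in both bulge libraries than in N, by 6.83-fold in S (5.98 to 7.84) and 53.7-fold in B (47.6 to 61.0). The ratio of Ccn1 to Ccn2 was thus close in S (0.411) and B (0.418) and far higher in N (19.5). Exons of the antisense gene Gm15270 overlap those of Ccn2. Ankrd1, the third classical target, is listed at 0 in all 3 libraries.

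The other named targets fell on both sides. Nt5e, which encodes the ectonucleotidase CD73, was at 21.4 in S, 31.4 in B and 1.52 in N, which put S 14.1-fold and B 20.7-fold above N. Myof, which encodes the membrane protein myoferlin, was at 17.1 in S, 7.43 in B and 4.31 in N and was higher in S in both comparisons. The remaining called genes were picked after their values were seen. They were Rbms3 (6.14 in S, 6.81 in B and 1.53 in N), higher in both bulge libraries, Tgfb2 (0.718, 1.96 and 0.360), higher in B than in N, and Asap1 (3.78, 6.74 and 11.5), lower in S than in N. Tgfb2 (mean 1.01) passed the filter only through its B value, so its place among the targets counted higher in B is partly set by the filter. The receptor gene Axl (4.55 in S, 10.6 in B and 7.65 in N) was lower in S than in B, and the kinase gene Nuak2 (2.40, 0.614 and 1.34) was higher in S than in B. Of the targets outside the members, 5 of 13 with a promoter window held the TEAD motif there, beside 14.4% of all genes: Ccn1, Ptpn14, Axl, Ankrd1 and Crim1. The AP-1 motif was held by 1 of the 13, beside 7.82% of all genes. Crim1, also picked after its values were seen, was at 12.8 in S, 12.2 in B and 12.3 in N. Levels were not compared between targets with and without the motif.

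**Figure D5:**
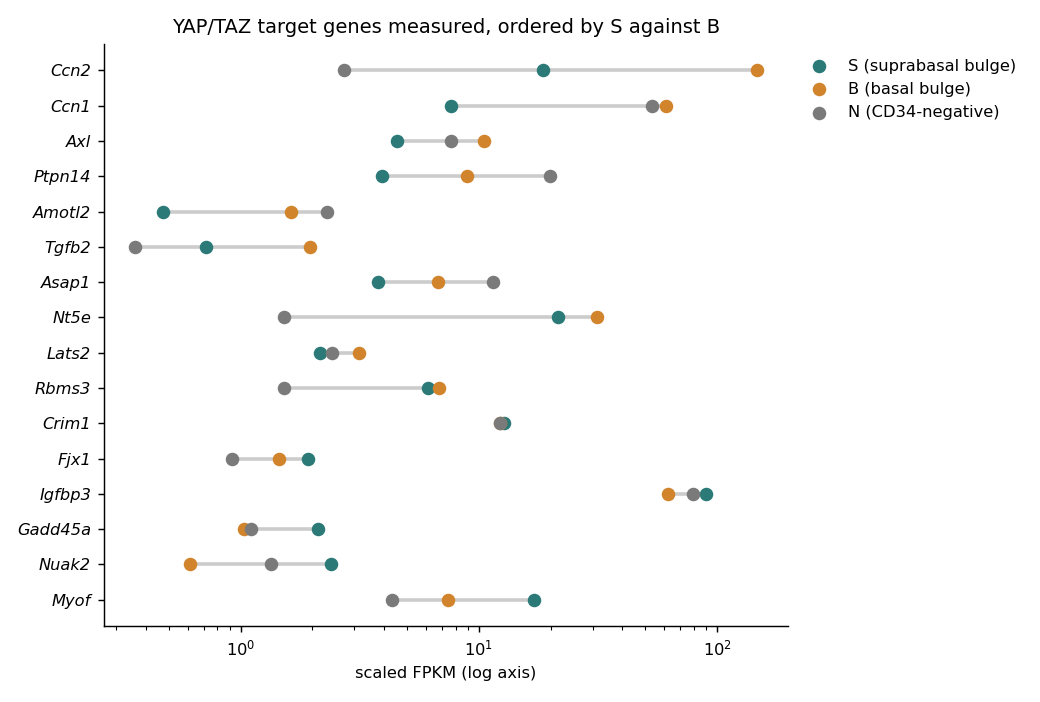
Scaled FPKM (log axis) of the 16 measured YAP and TAZ target genes in S, B and N, ordered by their ratio in S against B with the lowest at the top. Ccn2, Ccn1, Axl, Ptpn14 and Amotl2 are lower in S than in B, and Myof and Nuak2 at the bottom are higher in S.

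Levels of transcripts do not report the place or phosphorylation of YAP and TAZ, which were not measured. Scaling all rows to the same total shifted the median of all genes in S against N to -1.41 and in S against B to -1.53. Measured against the median of all genes, every member kept its side in all 3 comparisons under all 7 alternatives of scaling, pseudocount and row choice, except Lats1 and Lats2 in S against N under that same total.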

How the data were processed

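RNA of 4 mice per population was pooled, preamplified with poly(T) and random primers and read as pairs of 75 bp, per the labels' protocols. The authors deposited FPKM values per Ensembl gene, per the file headers for N and S. The column for B is headed by its population, and its unit was taken from the values. The submitters' processing notes name the build mm10 and the tools DESeq2, Cufflinks 2.1.1 and TopHat2 2.0.12 but do not say what each was used for, and the annotation used is not given in the sources used here. Every file has 49452 rows, of which 49195 were given a symbol (49109 from a gene name table, the rest from GENCODE M21), and 91.4% of the rows found in GENCODE M21 had the same coordinates there.

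Rows of 1 symbol were summed and divided by median-of-ratios factors over 18559 genes above 0 in all libraries (0.923 for S, 0.981 for B and 1.10 for N), with Python 3.11.15, pandas 2.3.3 and scipy 1.17.1. A mean of at least 1 was required, which left 11575 genes. Depth was the number of fragments at which most low values of 1-exon genes of at least 3000 bp became whole (between 95.7% and 97.6% within 0.1 of a whole number). Fragments per gene were estimated from FPKM, depth and the median length of basic coding transcripts in GENCODE M21, and 95% exact (Clopper-Pearson) intervals cover counting error only. The steps were tested on simulated data.

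The members and lists were chosen with earlier results of these data known. Named genes are the members, Ccn1, Ccn2 and Ankrd1, up to 5 other genes per pathway list (those of mean 3 or more whose ratio in any comparison was largest), the genes of the sort and the most abundant marker of each other cell type. Of the genes this rule names, 1 nuclear partner is not reported here. Others are said to be picked after their values were seen. Promoter sequences are from RefSeq (GRCm38.p6). Scaling, pseudocount, filter, row choice and fold were varied.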

Additional observations from a re-analysis of the deposited data

How the results depend on the processing

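With 1 library per group, leaving out a replicate was not run. No paired analysis was possible because each group has 1 library and the labels give no replicate numbers. Of 201 summary values, 149 stayed within 1.5 times or the counting error and 52 moved; of 534 single values, 415 stayed, 119 moved and 0 called values changed sign. As deposited, without scaling, 1 member was lower in B against N and 4 in S against N, where their median was -0.78. With equal protein-coding sums, 1 pathway gene was lower in B against N and 1 member in S against N. With an equal total over all rows, which moved the median of all genes to -1.41 (S against N), 0.10 (B against N) and -1.53 (S against B), S against N had 7 members lower (median -1.90), 223 genes higher and 8682 lower, and 1 pathway gene higher and 63 lower. S against B then had 9 members lower (median -1.65), 82 genes higher and 10226 lower, and 0 pathway genes higher and 76 lower, while B against N had 1273 genes higher and 1 pathway gene lower. With factors from protein-coding genes of mean 5 or more, 3 pathway genes were lower in B against N. With a pseudocount of 0.5 or of 0.1, 1 member was lower in B against N, 4 in S against N and 2 in S against B; at 0.1, 1074 genes and 8 pathway genes were also lower in S against B. With no filter the members' median in S against N was -0.33. With a mean of at least 5, 0 members were called in S against N (median -0.75) and 0 were higher in B against N, so Tead4 was not counted. All genes then numbered 546 higher and 611 lower in S against N, 373 and 419 in B against N, and 239 and 341 in S against B, and pathway genes higher numbered 5, 3 and 1. At 1.5-fold, members numbered 2 higher and 4 lower in S against N, 1 lower in B against N and 2 lower in S against B, and all genes 2184 and 2224, 1666 and 1928, and 1155 and 1314. The cause of these shifts was not tested. Before centring on the median of all genes, the equal total turned the sign of Tead3 (-0.68) and Lats1 (-1.54) in S against N, and of Wwtr1 (-1.63), Tead2 (-0.71), Tead3 (-1.02), Tead4 (-1.42) and Lats1 (-1.46) in S against B, none of them called in the values as reported. Tead4 was called under all scalings and pseudocounts, with a lowest log2 ratio of 1.03 in S against N and 1.88 in B against N. Depth limits the N values of Tead4 and Tead2, which rest on under 10 fragments each.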
